A study of Rattus norvegicus with 6 samples.

Results

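The immediate early transcription factors of the Egr, Fos and Jun families, with Klf10, Zfp36 and Srf, were examined in cultured newborn rat ovaries. The set holds 10 genes, Egr1, Egr2, Egr3, Fos, Fosb, Jun, Junb, Klf10, Zfp36 and Srf, and its members were chosen by name with the CTGF minus control differences of these arrays already known. Egr1 also stands on the study's own list of changed genes. A member was any probe set annotated with exactly 1 of these symbols. This gave 9 probe sets for 9 genes, of 27342 probe sets on the array and 15097 with a single symbol. Fosb had no such probe set and was not measured here. Because the contrast had been used in the choice, the differences between CTGF and control are described without a test.

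The data were collected from 6 arrays of whole ovaries of 0-day-old female Sprague-Dawley rats kept in organ culture for 24 h. The 3 control samples received no treatment and the 3 CTGF samples received human connective tissue growth factor at 500 ng/ml. For each sample 2 to 3 ovaries of different pups of 1 litter, cultured in the same well, were pooled, and each of the 3 organ culture date batches gave 1 control and 1 CTGF sample. All values are log2 signals, so a difference of 1 is a doubling, and CTGF minus control is the difference within a batch. Batch differences had been taken out of the values before deposit, so groups that do not overlap are in effect those whose 3 batch differences share a sign, and the SD over the samples of a group leaves the batch effect out. In a whole ovary, fewer cells of a type and less RNA per cell cannot be told apart.

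Immediate early genes are transcribed within minutes of a growth factor, matrix or stress signal without new protein synthesis, and most of their mRNAs are short-lived. Srf, the serum response factor, binds the CArG box in many of their promoters together with Elk proteins downstream of the ERK kinases, or with the actin-sensing MRTF coactivators. The Egr proteins are zinc finger factors, while Fos and Jun proteins pair to form the AP-1 factor. Klf10 is an early target of TGFβ, and the protein of Zfp36, tristetraprolin, destabilizes mRNAs that carry AU-rich elements.

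The promoters of members are shown because Srf binds the CArG box, which several of them hold. Promoter windows of RefSeq on the GRCr8 assembly, from 250 bases before to 50 bases after the start of transcription, were given for 6 members: Egr1, Egr2, Fosb, Junb, Zfp36 and Srf. The windows of Egr1 and Srf are printed whole, and those of Egr2 and Zfp36 around their matches. Capitals mark matches of the CArG box, of the EGR site GCGNGGGCG and of the TATA box TATAAA, on either strand. Egr1 lies at chr18:26736828-26737127 on the plus strand, Srf at chr9:21923826-21924125 on the plus strand, Egr2 at chr20:21054490-21054549 on the minus strand and Zfp36 at chr1:92799106-92799212 on the minus strand.
Egr1: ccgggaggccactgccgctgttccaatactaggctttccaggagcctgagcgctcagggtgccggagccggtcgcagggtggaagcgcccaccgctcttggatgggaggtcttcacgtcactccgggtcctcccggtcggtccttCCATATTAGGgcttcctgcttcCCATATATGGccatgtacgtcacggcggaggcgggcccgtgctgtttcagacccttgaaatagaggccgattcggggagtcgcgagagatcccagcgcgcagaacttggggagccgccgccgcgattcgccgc
Srf: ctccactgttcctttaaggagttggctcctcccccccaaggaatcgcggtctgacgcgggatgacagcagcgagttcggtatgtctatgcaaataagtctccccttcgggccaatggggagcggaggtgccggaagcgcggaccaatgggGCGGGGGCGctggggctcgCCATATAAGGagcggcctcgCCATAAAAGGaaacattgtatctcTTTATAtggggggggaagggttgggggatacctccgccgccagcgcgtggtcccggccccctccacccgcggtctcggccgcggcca
Egr2: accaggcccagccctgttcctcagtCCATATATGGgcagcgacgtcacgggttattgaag
Zfp36: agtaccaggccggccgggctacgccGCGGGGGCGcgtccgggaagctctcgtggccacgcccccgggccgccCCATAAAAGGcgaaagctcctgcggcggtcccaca

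The CArG box was found in 4 of the 6 windows, those of Egr1, Egr2, Zfp36 and Srf, and in 548 of all 33469 promoters (1.64%). Egr1 had 2 matches, at -105 to -96 and -83 to -74, and Srf had 2, at -81 to -72 and -61 to -52. Egr2 had 1, at -83 to -74. The match of Zfp36 lay closest to the start, at -32 to -23, and shared its first base with a GC box, GGGCGG. The EGR site was found in Srf at -100 to -92, where it overlapped a GC box, and in Zfp36 at -79 to -71, against 4.98% of all promoters. The TATA box was found in Srf at -37 to -32, on the opposite strand, in Junb at -49 to -44 and in Fosb at -180 to -175. Anywhere in the window and on either strand, it was found in 14.2% of all promoters. The GC box was found in Egr2, Zfp36 and Srf, against 33.1%. These shares are over all promoters, measured on the array or not. Of 12449 measured probe sets of genes with a window, 6358 belonged to genes with a GC box and 1003 to genes with an EGR site. For the CArG box the count was 170 and for the TATA box 1515. Among measured probe sets the share was thus higher for the GC box and EGR site, and lower for the CArG and TATA boxes. The AP-1 site TGACTCA (4.63% of all promoters) and the CRE site TGACGTCA (1.83%) had no match in the 6 windows, which says only that these letters are not in them.

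**Figure D1:**
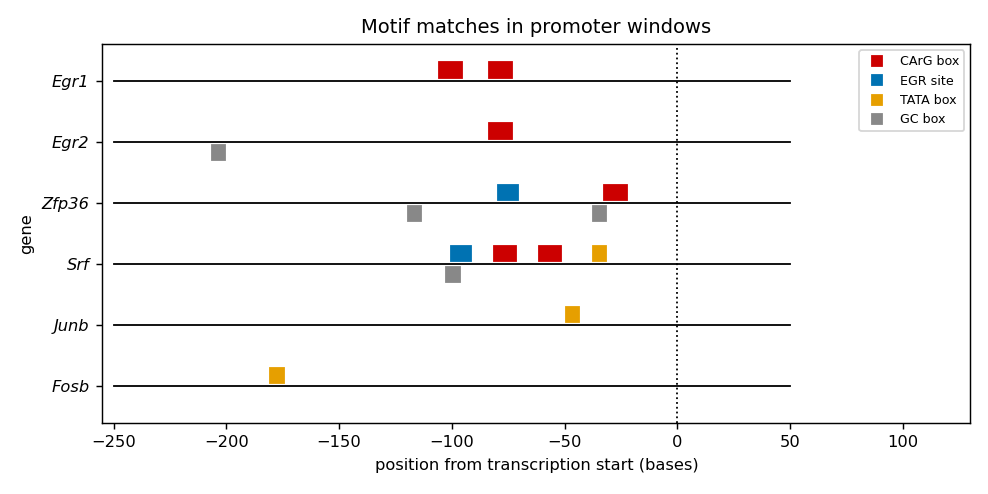
Motif matches (coloured boxes) in the promoter windows of 6 members (vertical axis) by position from the start of transcription in bases (horizontal axis; dotted line, the start). Boxes above a line are CArG, EGR and TATA matches and those below it GC boxes, and the 6 CArG matches, 2 each in Egr1 and Srf and 1 each in Egr2 and Zfp36, lie between -105 and -23.

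Genes of other organs set the level of background. Their 44 probe sets, of the retina, lens, pancreas, pituitary, kidney, gut, lung, heart, muscle, brain, thyroid and skin, had a median log2 signal of 4.49 and a 95th percentile of 5.61, here called the silent level. Of the 27342 probe sets, 52.8% lay above it. The tissue was labelled ovary, and all 7 measured oocyte markers and all 7 measured pregranulosa markers lay above that level. Of the immediate early factors, Egr1, Jun, Klf10, Zfp36 and Srf lay above the silent level, and Egr2, Egr3, Fos and Junb did not. With the 90th percentile of 5.485 in its place the count was also 5 of 9.

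Egr1, the zinc finger factor also known as Krox-24 and NGFI-A, had the largest difference among the members. Its log2 signal was 7.03, 7.0 and 7.05 in the control samples of batches 1, 2 and 3, and 7.29, 7.31 and 7.26 in the CTGF samples. All 3 CTGF samples lay above all 3 control samples. CTGF minus control was 0.26 ± 0.05 (SD of 3 differences), with 0.26, 0.31 and 0.21 in the batches. Un-logged, the mean signal was 130.4 ± 2.27 in control and 156.2 ± 2.72 with CTGF (SD, n = 3), a difference of 25.8. The mean with CTGF was 1.1975 times that of control, which reaches the study's ratio threshold of 1.2 only when rounded. This is the contrast by which the study listed Egr1, so it is no independent evidence. Of all probe sets, 131 (0.479%) had a higher difference.

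The other Egr members were at background. Egr2, or Krox-20, read 4.68, 4.66 and 4.69 in control and 4.77, 4.79 and 4.76 with CTGF. The CTGF samples lay above the control samples by 0.10 ± 0.03 (SD of 3 differences). Its signal stood at the 65.9 percentile of the silent tissue probe sets. Egr3 read 4.98, 4.86 and 4.81 in control and 4.81, 4.94 and 4.98 with CTGF. Its groups overlapped, with differences of -0.17, 0.08 and 0.17.

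Fos, the partner of Jun in AP-1, read 4.75, 4.82 and 4.74 in control and 4.91, 4.84 and 4.91 with CTGF. The difference was 0.12 ± 0.08 (SD of 3 differences), with 0.02 in batch 2, and the groups did not overlap. At these levels, below the silent level in all 6 samples, Fos mRNA was not distinguishable from background after 24 h in either group.

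Jun, which pairs with Fos or with itself, was well above the silent level. It read 7.80, 7.81 and 8.00 in control and 8.00, 7.98 and 7.79 with CTGF. The groups overlapped, and batch 3 ran opposite to batches 1 and 2, with differences of 0.20, 0.17 and -0.21. Their mean of 0.05 was smaller than their SD of 0.23. In batch 3 the 6 stromal markers had a median difference of -0.415, against 0.13 and 0.04 in batches 1 and 2. Their summed un-logged signal ran from 4810.4 to 5903.3 in control and from 4301.1 to 5255.7 with CTGF. Their part in the values of Jun was not tested. Junb, a Jun family member that can dampen Jun activity, read 5.34, 5.28 and 5.32 in control and 5.35, 5.41 and 5.37 with CTGF. Its difference was 0.06 ± 0.06 (SD of 3 differences), with 0.01 in batch 1, at a signal below the silent level.

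Klf10, a repressor of the Krüppel-like family, followed Egr1 in size. It read 7.27, 7.29 and 7.33 in control and 7.51, 7.49 and 7.46 with CTGF. All CTGF samples lay above all control samples, with differences of 0.24, 0.20 and 0.13 and a mean of 0.19 ± 0.06 (SD of 3 differences). Un-logged, its mean signal with CTGF was 1.14 times that of control. A higher difference was found in 1.65% of all probe sets.

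Zfp36 read 5.96, 5.89 and 5.87 in control and 6.03, 6.10 and 6.12 with CTGF. Its groups did not overlap either, and the difference of 0.18 ± 0.09 (SD of 3 differences) ranged from 0.07 in batch 1 to 0.25 in batch 3. Its signal stood at the 97.7 percentile of the silent tissue probe sets. Un-logged, its mean signal with CTGF was 1.13 times that of control.

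Srf was the one member whose mean lay below control. It read 6.81, 6.73 and 6.80 in control and 6.58, 6.65 and 6.59 with CTGF. All 3 CTGF samples lay below all 3 control samples, with differences of -0.23, -0.08 and -0.21 and a mean of -0.17 ± 0.08 (SD of 3 differences). Un-logged, its mean signal with CTGF was 0.887 times that of control. A lower difference was found in 858 of all probe sets (3.14%). Egr1 and Srf, which both have 2 CArG boxes in their windows, thus lay on opposite sides of control in every batch.

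**Figure D2:**
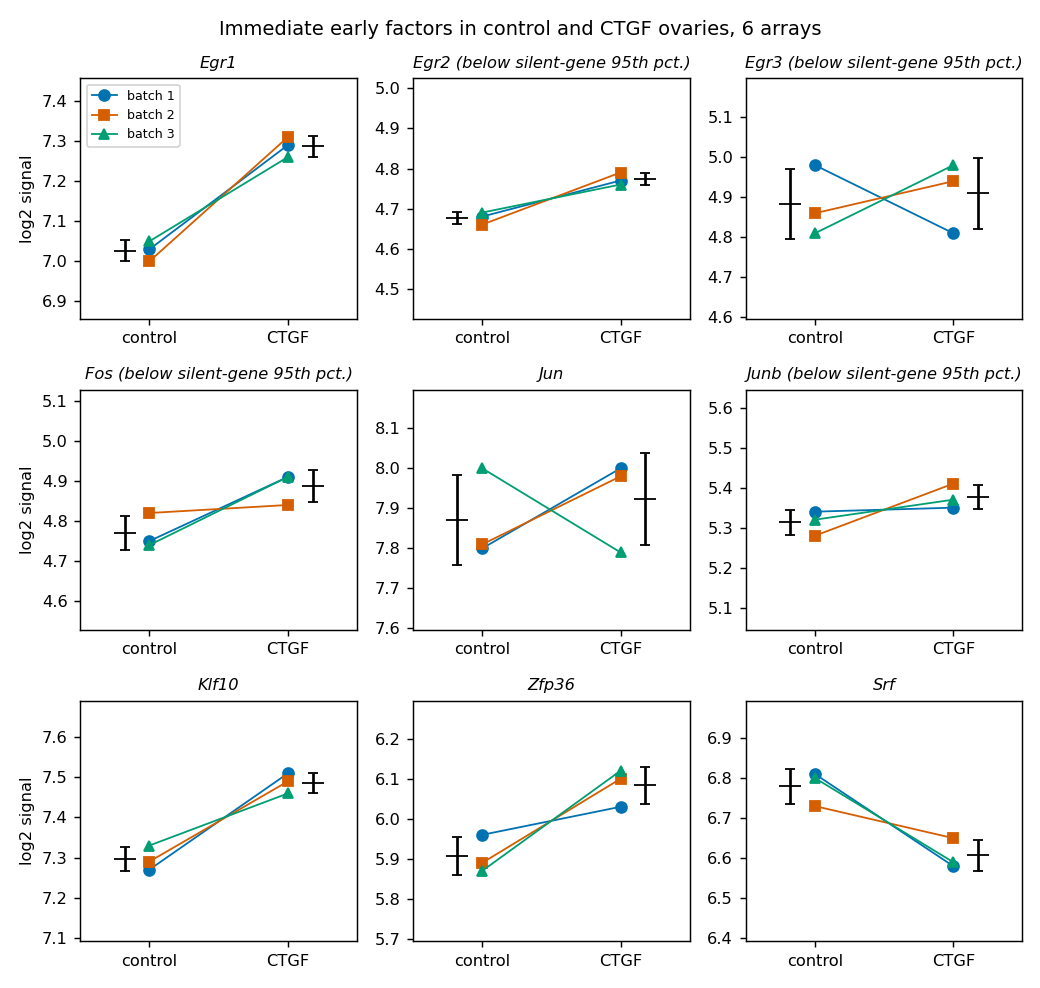
Log2 signal (vertical axis, each panel spanning the same width) of the 9 measured members in control and CTGF samples (horizontal axis), with lines joining the samples of 1 culture batch and black bars the mean ± SD of 3 samples. The CTGF samples of Egr1, Klf10 and Zfp36 lie above all control samples and those of Srf below, while the lines of Egr3 and Jun cross.

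Across the set, 8 of 9 members had a mean above control and 1 below. All 3 CTGF samples lay above all 3 control samples for 6 members, Egr1, Egr2, Fos, Junb, Klf10 and Zfp36, against 9.41% of all 27342 probe sets. They lay below for 1 member, Srf, against 10.9%. Of these 6, 3 (Egr2, Fos and Junb) were not above the silent level. Among the 44 silent tissue probe sets, 10 (22.7%) had the CTGF samples above and 2 (4.55%) below. Over all probe sets not above the silent level the shares were 9.43% and 12.2%. The median difference of the 9 members was 0.0967, against -0.0033 for all probe sets. These counts follow a choice made on the same contrast, and nothing is read from them.

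The culture batches did not order the members alike. In batch 1, 7 of 9 members lay above their control, in batch 2, 8 and in batch 3, 7. The member medians were 0.09, 0.13 and 0.13, and those of all probe sets 0, -0.01 and 0. Egr1 had the highest difference in batches 1 and 2, at 0.26 and 0.31, while Zfp36 had it in batch 3, at 0.25. Srf had the lowest in batches 1 and 2, at -0.23 and -0.08, and in batch 3 it shared -0.21 with Jun.

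**Figure D3:**
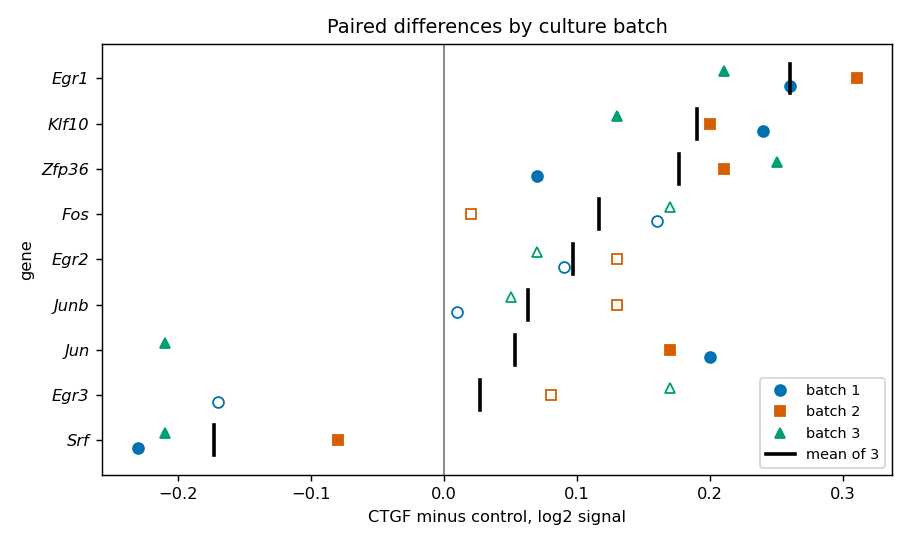
CTGF minus control in log2 signal (horizontal axis) for each member (vertical axis) in batches 1 (circles), 2 (squares) and 3 (triangles), with the mean of 3 (black line) and open symbols for members not above the silent level. The points of Egr1 lie between 0.21 and 0.31 and those of Srf between -0.23 and -0.08, whereas those of Jun and Egr3 lie on both sides of 0.

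The fit over the whole array called none of these genes. With limma, blocked for culture batch, 0 of 27342 probe sets (0%) had an adjusted p under 0.05 (smallest adjusted p = 0.994), and the 2-way test of the methods gave 0 as well. Without adjustment, 915 probe sets (3.35%) had a p under 0.05 in limma, 397 higher and 518 lower, and 1147 in the 2-way test. Centring the arrays on their medians changed the limma split to 560 higher and 383 lower. Of the 9 members 4 were among the 915, Egr1, Klf10 and Zfp36 on the higher side and Srf on the lower side. The members were chosen with this contrast known, so nothing is read from that count.

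**Figure D4:**
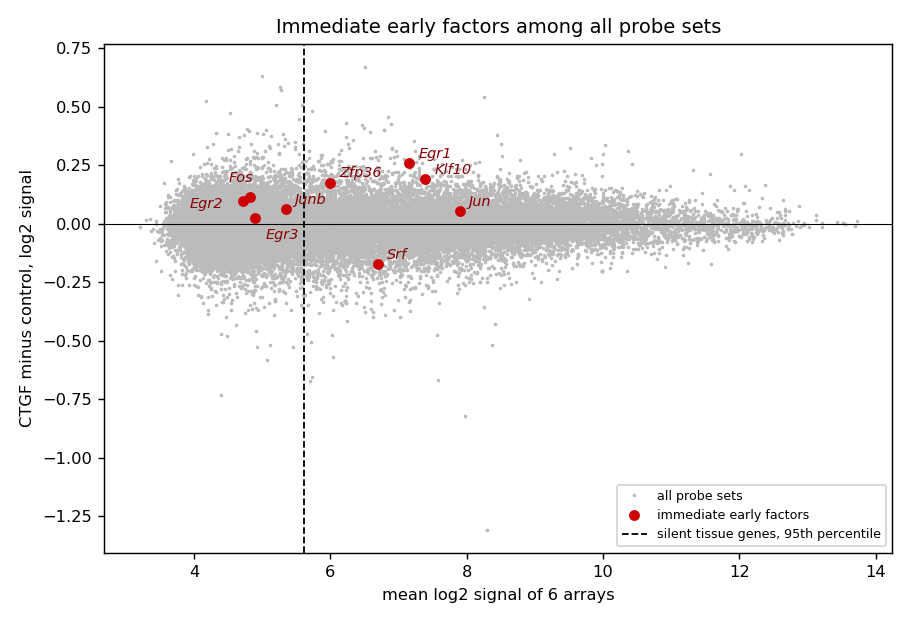
CTGF minus control in log2 signal (vertical axis, mean of 3 batches) by signal level, the log2 mean over 6 arrays (horizontal axis), of all 27342 probe sets (grey) and the 9 members (red), with the silent level of 5.61 (dashed line). Egr1 lies at 0.26, with 131 probe sets higher, Srf lies at -0.17, with 858 lower, and Egr2, Egr3, Fos and Junb lie left of the line.

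The close relatives of the Egr and AP-1 members lay on both sides of control. Egr4 was below the silent level, with differences of -0.06, -0.10 and -0.22. The corepressors that bind Egr proteins, Nab1 and Nab2, had mean differences of -0.14 and -0.03 with overlapping groups. Of 11 measured other AP-1 subunits, 5 had a mean above control and 5 below, with a median of 0. Jund, the third Jun protein, had a difference of 0.03 ± 0.03 (SD of 3 differences) at a signal of 7.175. Fosl1, Atf3, Jdp2 and Batf lay below the silent level, at -0.06, -0.09, -0.02 and 0. Of these 11, which leave out the Fos and Jun members above, 1 had all CTGF samples above control, Batf3 (0.15 ± 0.23, SD of 3 differences), and it was named after its value was seen.

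The paralogs of Zfp36 lay on the side of Zfp36 itself. Zfp36l1 read 9.72, 9.61 and 9.70 in control and 9.76, 9.87 and 9.78 with CTGF. Zfp36l2 read 8.19, 8.17 and 8.23 in control and 8.35, 8.38 and 8.32 with CTGF. Neither gene's groups overlapped, and the mean differences were 0.13 ± 0.12 and 0.15 ± 0.06 (SD of 3 differences). Of 12 mRNAs that tristetraprolin destabilizes, 8 had a mean above control and 4 below, with a median of 0.025. Only 6 of these 12 were above the silent level. Cxcl1, a chemokine that is also on the study's list, had 0.28 ± 0.06 (SD of 3 differences). Ptgs2, the inducible cyclooxygenase, had -0.14 ± 0.09 (SD of 3 differences), below the silent level. Tnf had 0.46, 0.01 and -0.20 in the batches, and Il6 and Cxcl2 were below the silent level at 0.0033 and -0.13.

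Klf11, the nearest relative of Klf10, had differences of 0.05, 0.01 and 0.26. In the Klf and TGFβ early response list, 8 of 10 measured genes had a mean above control, with a median of 0.0467. The list moved apart by batch, with medians of -0.19, 0.025 and 0.275. Smad7, the inhibitory Smad, went from -0.19 in batch 1 to 0.35 in batch 3, at a signal below the silent level. Klf10 had the reverse order, at 0.24 in batch 1 and 0.13 in batch 3.

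The partners of Srf gave a mixed picture. Elk1, a ternary complex factor, had -0.29, -0.09 and -0.05, with all CTGF samples below control, while Elk3 and Elk4 had mean differences of -0.06 and 0.02 with overlapping groups. The contractile and cytoskeletal targets of Srf had a median of -0.01 over 21 probe sets of 16 genes, 10 above and 11 below, and 6 of these probe sets carry the symbol Actg1 with near-equal values. Actb, the gene of β-actin, had 0.07 ± 0.08 (SD of 3 differences) and Vcl, of vinculin, 0.07 ± 0.06, while Tagln, a smooth muscle gene, had -0.10 ± 0.10. Of the genes with a CArG box in the RefSeq window, 170 probe sets were measured. Of these, 15 (8.82%) had all CTGF samples above control and 11 (6.47%) below, with a median difference of -0.0017. Over all 12449 probe sets of genes with a window the shares were 9.48% and 10%.

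The kinase cascade that signals to Srf, Elk and AP-1 was evenly divided, with 10 probe sets above and 10 below control and a median of 0.0017. Dusp6, a phosphatase of ERK, had 0.08, -0.04 and -0.61, and Spry2, a feedback inhibitor, -0.01 ± 0.05 (SD of 3 differences). Of 42 probe sets of 41 other immediate early genes, 28 had a mean above control and 13 below, with a median of 0.0567. In 7 (16.7%) all CTGF samples lay above control and in 3 (7.14%) below, against 9.41% and 10.9% of all probe sets and 22.7% and 4.55% of the silent tissue probe sets. Ier2 had 0.07 ± 0.07 and Nr4a1 0.07 ± 0.20 (SD of 3 differences), both below the silent level. Dusp1 had -0.02 ± 0.14, Myc -0.07 ± 0.14 and Ccn1 0.09 ± 0.19 (SD of 3 differences), all with overlapping groups. None of the genes in these lists had an adjusted p under 0.05 in limma, and 1 higher (Pim1) and 1 lower (Csrnp1) of the other immediate early genes had an unadjusted p under 0.05. These 2, named after their values were seen, had 0.18 ± 0.10 and -0.20 ± 0.14 (SD of 3 differences), and Csrnp1 lay below the silent level. Cxcl1 and the oocyte marker Kit also had an unadjusted p under 0.05. Among the named genes, Acta2, Btg2, Fosl2, Hspa1a, Hspa1b, Mrtfa, Mrtfb and Skil had no probe set with a single symbol.

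**Figure D5:**
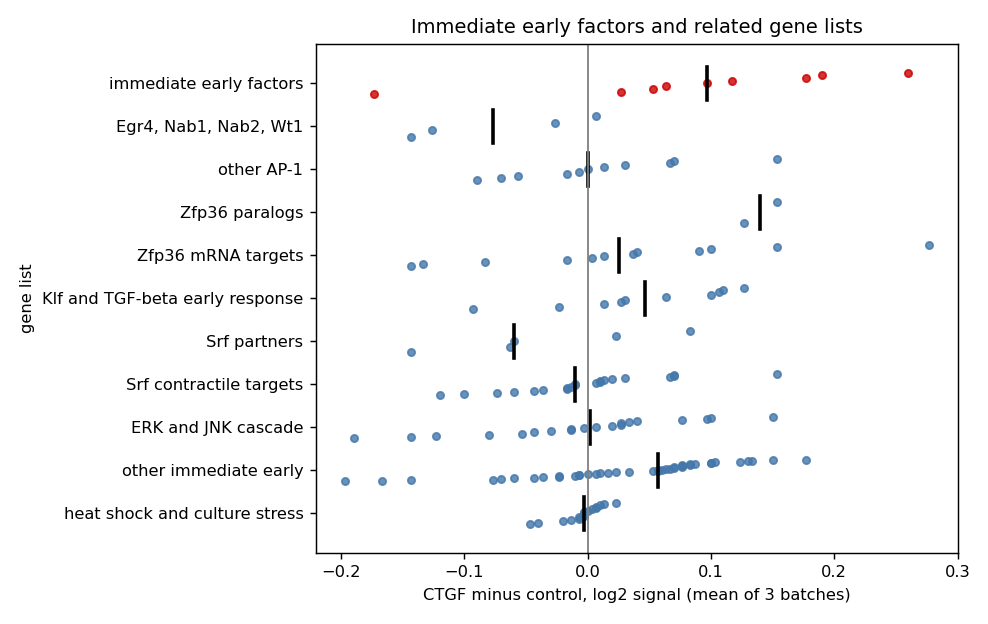
CTGF minus control in log2 signal (horizontal axis, mean of 3 batches) for the 9 immediate early factors (red) and the related lists (blue; vertical axis), 1 point for each probe set with the list median as a black line. The members have a median of 0.10 and the other immediate early genes 0.06. The medians of the other AP-1 subunits, Srf targets, kinases and heat shock genes lie between -0.01 and 0.00, while single points spread more widely. The 2 Zfp36 paralogs have a median of 0.14, the Srf partners -0.06, and the list of Egr4, Nab1, Nab2 and Wt1 -0.08.

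Immediate early genes also answer to handling, so the heat shock and culture stress genes were set beside them. Their 17 probe sets had differences from -0.05 to 0.02 and a median of -0.0033, and their summed signal ran from 61156.7 to 62387.4 in control and from 61129.5 to 62310.8 with CTGF. Of these, 8 probe sets carry the symbol Hspa8, a constitutive chaperone, at mean control signals of 5008 to 7932 each, so both the sum and the median mainly read that gene. Among the others, Hspb1 had -0.07, 0.38 and -0.33 in the batches and Atf4 0.22, 0.08 and -0.28, these too named after their values were seen. Dnajb1, a heat shock cochaperone, had -0.05 ± 0.01 and Hsph1 -0.04 ± 0.14 (SD of 3 differences). Among the cell type markers, all 7 of the oocyte list had a mean above control (median 0.03), with summed signals from 4654.8 to 5155.5 in control and from 4930.5 to 5441.3 with CTGF. Within it Kit, the receptor of kit ligand, had 0.19 ± 0.10 and Lhx8, an oocyte transcription factor, 0.15 ± 0.16 (SD of 3 differences), both with all CTGF samples above control and both named after their values were seen. These differences were about as large as those of Klf10 and Zfp36. The other measured oocyte markers, named to complete the list, all had overlapping groups. Ddx4, Dazl, Gdf9 and Zp3 had mean differences from 0.0033 to 0.03, and Sycp3 had 0.37, -0.38 and 0.48 in the batches. Of the pregranulosa list 4 of 7 lay above, with sums from 4930.3 to 5360.0 and from 4956.1 to 5387.7. Of the leukocyte list 2 of 7 lay above, with sums from 1461.2 to 1496.9 and from 1446.8 to 1476.8. All 3 measured endothelial markers had means below control, with sums from 342.3 to 382.7 and from 314.0 to 347.3. Of the smooth muscle list 1 of 4 lay above, with sums from 291.0 to 332.6 and from 269.2 to 306.3. All 4 erythroid markers lay below, with sums from 1416.4 to 1702.1 and from 1350.7 to 1624.0. The sums of these lists overlapped between the groups, and their part in the differences of the members was not tested.

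The genes nearest to 3 members in their batch differences were sought among the probe sets with 1 symbol above the silent level, by Euclidean distance over the 3 differences. For Egr1 they were Trim26 (0.23, 0.25 and 0.25), Cited1 (0.20, 0.26 and 0.23) and Zbtb10 (0.21, 0.27 and 0.27), at distances of 0.078 to 0.088. No gene of 9079 came within 0.05 of Egr1. Only 0.479% of all probe sets had a higher mean difference than Egr1, so few genes could fall within a fixed distance of it. For Fos they were Pspc1, Dlg1 and Kif3a, at distances of 0.014 to 0.032, and 14 of 9080 came within 0.05. For Srf they were Fam151b, Dnlz and Map2k6, at distances of 0.047 to 0.05, and 3 of 9079 came within 0.05. The likeness over 3 differences is a description alone.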

How the data were processed

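Ovary RNA of 3 control and 3 CTGF pools was hybridized to Affymetrix Rat Gene 1.0 ST arrays. The deposited values are log2 signals, 1 for each probe set, that the authors made with RMA and a GC-content adjustment in Partek. The batch differences had been taken out before deposit: the pair means agree within 0.005 between the 3 batches, and the deviations of the 3 pairs correlated at -0.9988, -0.9988 and -0.9991. The samples are paired by replicate number, which equals the culture batch. Group SDs hence lack the batch-to-batch spread, and the number of arrays limits the precision.

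Samples were grouped by their labels. Probe sets were named from the platform annotation, with current symbols through RefSeq (15067 of 15097 matched). All 27342 probe sets were fitted with limma 3.58.1 in R 4.3.3, with batch as a block and Benjamini-Hochberg adjustment, without a filter, and the procedure was tested on simulated data. The members and lists were chosen with earlier results of these data known. The named genes are all members, fixed names from each list, and the 3 nearest genes in batch differences for Egr1, Fos and Srf, besides a few genes said in the text to have been named after their values were seen. Motifs were searched on both strands of the RefSeq windows. Alternatives were a fit without the block, quantile normalization, median centring, a signal filter, the methods' 2-way test, limma's trend and robust options and each replicate left out. Protein sequences were not used here. The p-values measure the spread of the 3 within-batch differences, each between a CTGF and a control pool, and not the spread between batches.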

Additional observations from a re-analysis of the deposited data

How the results depend on the processing

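The fit without a replicate block called 4415 probe sets at an unadjusted p under 0.05, against 915 with it; since batch differences had already been removed, this fit counts residual degrees of freedom that the values no longer hold. Restricted to the 14439 probe sets above the silent level the count was 406, with fewer probe sets tested. The other alternatives gave 881 to 1147, and leaving out 1 replicate 645 to 1244. No alternative called a probe set at an adjusted p under 0.05 (smallest adjusted p between 0.0609 without the block and 1). The members' differences moved by at most 0.013 under quantile normalization or median centring, and the numbers of members with all CTGF samples above or below control were again 6 and 1. Without 1 replicate, the mean of Egr1 ran from 0.235 to 0.285, of Egr2 from 0.08 to 0.11, of Fos from 0.09 to 0.165, of Junb from 0.03 (without replicate 2) to 0.09, of Klf10 from 0.165 to 0.22, of Zfp36 from 0.14 to 0.23 and of Srf from -0.22 to -0.145. The mean of Egr3 was 0 without replicate 2 and -0.045 without replicate 3, and that of Jun was -0.02 without replicate 1 and -0.005 without replicate 2, so their directions change with the replicate left out.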

Other observations

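Genes with an EGR site in the RefSeq promoter window had 1003 probe sets, of which 108 (10.8%) had all CTGF samples above control and 77 (7.68%) below. For the GC box the values were 671 (10.6%) and 552 (8.68%) of 6358, for the CRE 29 (9.21%) and 24 (7.62%) of 315, and for the AP-1 site 57 (11.5%) and 53 (10.7%) of 497. For the TATA box they were 130 (8.58%) and 166 (11%) of 1515. Over all genes with a window the shares were 9.48% and 10%, and the differences from them were not tested. Of 36 promoters of other immediate early genes, 5 held a CRE, 8 an EGR site and 2 a CArG box, and of 21 promoters of Srf contractile targets, 5 held a CArG box.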
